A study of Arabidopsis thaliana with 4 samples.

Results

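ASPGB1, IVD, FDH and CYTC-2 encode an asparaginase, isovaleryl-CoA dehydrogenase, formate dehydrogenase and a cytochrome c of Arabidopsis thaliana, enzymes and an electron carrier of amino acid breakdown and mitochondrial electron transfer. They were taken by symbol from the platform annotation, which gave 1 probe set for each of the 4 genes, out of 13356 genes with a probe set naming them alone and 22810 probe sets in all. The genes were chosen by their difference in signal between the groups, which was already known, so their values below are a description and carry no test. Transcript levels had been measured with single-colour Affymetrix arrays in whole Col-0 seedlings. The first group was 2 arrays of plants titled as overexpressing At1g54160, the locus of the transcription factor subunit NFYA5, with no treatment, and the second was 2 arrays of untreated wild type. Seedlings of both groups were 2 weeks old and had grown at 22 °C on MS agar with 3% sucrose, in cycles of 16 h light and 8 h dark. The design text, in contrast, names the first group as an nfya5 mutant. The titles were followed here, and 0 probe sets are listed for At1g54160, so that the label was not checked. The promoter of the transgene and the number of independent lines are not given in the sources used here.

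Plants break down amino acids both to move their nitrogen and, when sugar runs short, to feed respiration. Asparagine is a main transport form of nitrogen, and asparaginase releases its side-chain ammonium and leaves aspartate. Isovaleryl-CoA dehydrogenase is a mitochondrial flavoenzyme of leucine breakdown, which passes its electrons through the electron transfer flavoprotein (ETF) and its oxidoreductase (ETFQO) to ubiquinone. Formate dehydrogenase of plant mitochondria oxidises formate to CO2 and reduces NAD+. Cytochrome c carries electrons from the cytochrome bc1 complex to cytochrome c oxidase.

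The 4 arrays were close to each other as a whole, with median signals from 181.4 to 194.1 arbitrary units. The log2 signals of tested probe sets correlated at 0.988 between the overexpressor arrays and at 0.989 between the wild type arrays, across probe sets. All 6 seedling organ markers, 3 of green tissue and 3 of root, had a mean signal of at least 100. By limma 0 of them passed at an adjusted p of 0.05 and 0 at an unadjusted one. Of all tested probe sets 1.29% and 16.5% did. The markers' log2 fold changes ran from -0.37 to 0.11. Of the root markers EXPA18 had -0.37 and PYK10 0.11, each with groups that did not overlap, and EXPA7 had 0.11. Groups did not overlap in 48.1% of all tested probe sets. The shares of root and green tissue were not tested. Nothing in the labels says that replicates came from separate cultures, so any p-value measures only the spread between these samples. In whole seedlings, fewer cells of a type and less RNA per cell cannot be told apart.

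ASPGB1, IVD and FDH had lower signals in the overexpressor arrays than in wild type, by factors between 1.41 and 2.07, whereas CYTC-2 was higher by a factor of 1.85. For each of the 4 genes the groups did not overlap. Across all 13961 tested probe sets the groups did not overlap in 48.1%, with the overexpressor lower in 22.0% and higher in 26.1%. All 4 genes were among the probe sets with an adjusted p under 0.05 in limma's moderated test, which called 1.29% of tested probe sets, 0.759% as lower and 0.530% as higher in the overexpressor. Nothing can be read from these counts of the 4 genes, because the same contrast chose them.

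ASPGB1 (AT3G16150, chromosome 3) gave signals of 1052 and 668.4 on overexpressor replicates 1 and 2, against 1872.6 and 1695.6 on the wild type arrays. Both overexpressor arrays lay below both wild type arrays, and the second lay well below the first. The means were 860.2 ± 271 in the overexpressor and 1784 ± 125 in wild type (SD, n = 2 each), a ratio of 0.482. On the log2(signal + 50) scale, used for all log2 values here, the fold change was -1.04 ± 0.17 (SE). Among all tested probe sets this was the 7th largest fall. When each overexpressor array was divided by each wild type array, the 4 ratios of signals lay between 0.357 and 0.620. The overexpressor replicates differed by a factor of 1.57, and 98.8% of tested probe sets had a smaller difference between those replicates. The wild type replicates differed by a factor of 1.10, close to the middle of all tested probe sets.

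IVD (AT3G45300, chromosome 3) gave 1898.9 and 1908.4 in the overexpressor, against 3011.5 and 2578.8 on the wild type arrays. The overexpressor replicates were nearly equal, and the spread lay within wild type. The means were 1904 ± 6.72 in the overexpressor and 2795 ± 306 in wild type (SD, n = 2 each), a ratio of 0.681. The log2 fold change was -0.54 ± 0.10 (SE), the 146th largest fall among all tested probe sets. Without wild type replicate 1, the higher of the wild type arrays, the log2 fold change was -0.43 and IVD no longer had an adjusted p under 0.05.

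FDH (AT5G14780, chromosome 5) had signals of 4866.8 and 5790.1 in the overexpressor, against 7609.8 and 7399.9 on the wild type arrays. Here the wild type replicates were nearly equal and the overexpressor replicates differed by a factor of 1.19, with replicate 1 the lower, the reverse of the order seen for ASPGB1. The means were 5328 ± 653 in the overexpressor and 7505 ± 148 in wild type (SD, n = 2 each), a ratio of 0.710. The log2 fold change was -0.50 ± 0.10 (SE), the 193rd largest fall among all tested probe sets. FDH no longer had an adjusted p under 0.05 without overexpressor replicate 1, where its log2 fold change was -0.37, or without wild type replicate 1, where it was -0.48.

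CYTC-2 (AT4G10040, chromosome 4) had signals of 904.7 and 763.4 in the overexpressor, against 463.6 and 436.5 on the wild type arrays. It was the only one of the 4 genes that was higher in the overexpressor. The means were 834 ± 99.9 in the overexpressor and 450 ± 19.2 in wild type (SD, n = 2 each), a ratio of 1.85 and a log2 fold change of 0.82 ± 0.12 (SE). Each overexpressor array exceeded each wild type array, by a factor of at least 1.65 and at most 2.07. Among all tested probe sets this was the 42nd largest rise.

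**Figure D1:**
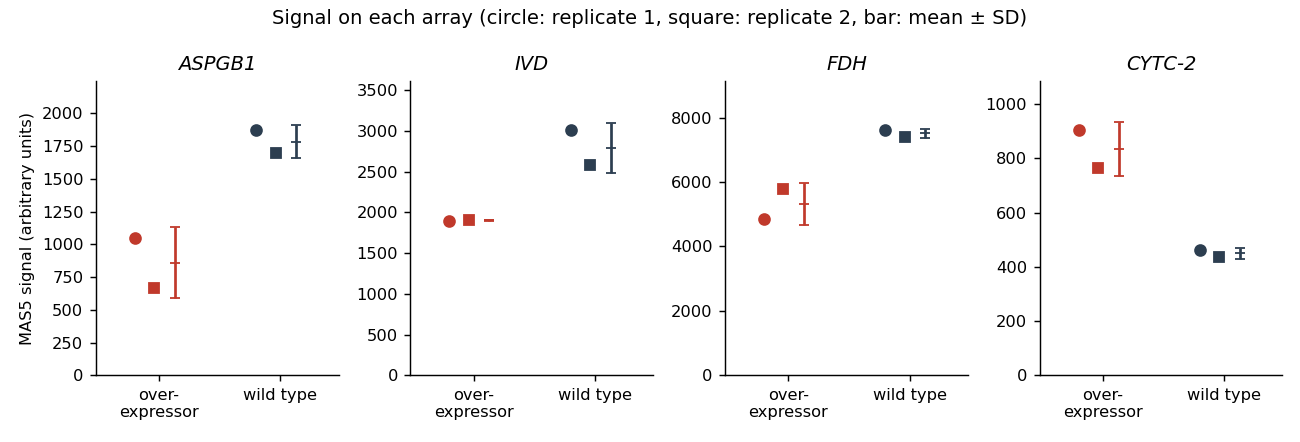
Signal of each gene on each array in arbitrary units, with overexpressor arrays at the left and wild type arrays at the right of each panel; circles are replicate 1, squares replicate 2, and bars the mean ± SD of 2 arrays. ASPGB1, IVD and FDH lie lower and CYTC-2 higher on both overexpressor arrays, and ASPGB1 is uneven between the overexpressor replicates, at 1052 and 668.4.

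**Figure D2:**
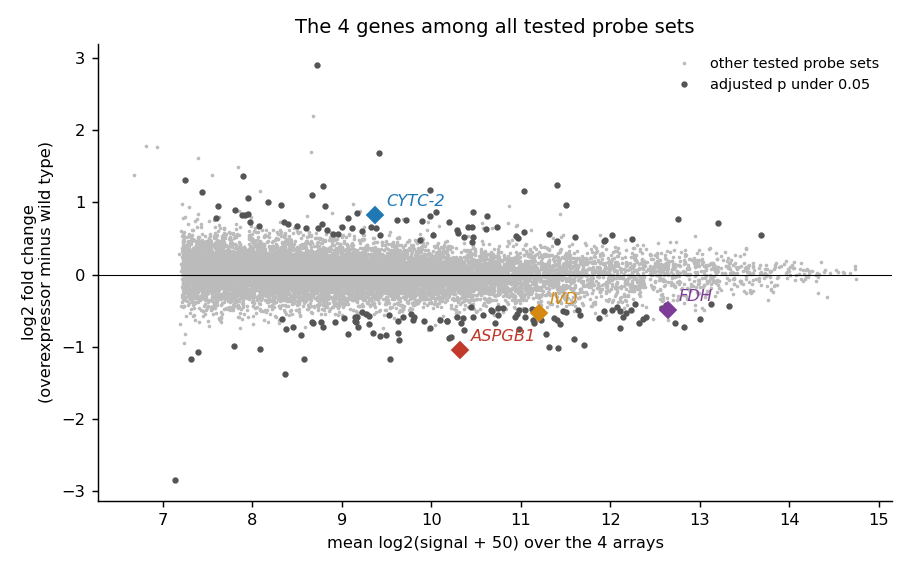
Log2 fold change, overexpressor minus wild type, against the mean log2(signal + 50) over the 4 arrays for the 13961 tested probe sets; dark points have an adjusted p under 0.05 in limma's test and coloured diamonds are the 4 genes. ASPGB1 lies at -1.04 and CYTC-2 at 0.82, whereas IVD and FDH lie closer to 0, at -0.54 and -0.50, among brighter probe sets with a narrower spread.

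Asparagine can be used by a second asparaginase, ASPGA1, which had signals of 856 and 875.5 in the overexpressor, against 1119.4 and 734.5 on the wild type arrays. The groups overlapped, and its log2 fold change was -0.06 ± 0.16 (limma, adjusted p = 0.88), against -1.04 for ASPGB1. The difference between these fold changes was not tested. ASPGA1 was uneven between the wild type arrays, and its log2 fold change lay between -0.35 and 0.22 with 1 array left out. The other 19 genes listed with it, such as asparagine synthetases and glutamine synthetases, are not analysed here.

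Around IVD, 11 of 20 other genes of branched-chain amino acid breakdown could be tested. By limma 0 of these passed in either direction, whereas 3 were under 0.05 before adjustment (27.3%, against 16.5% of all tested probe sets). Their median log2 fold change was 0.05, against 0.02 over all tested probe sets. Both ends of the electron route from IVD were measured. ETFQO, which hands the electrons to ubiquinone, had signals of 1165.5 and 1049.9 in the overexpressor, against 1540.8 and 1449.2 on the wild type arrays, and a log2 fold change of -0.42 ± 0.10 (limma, adjusted p = 0.073). Its groups did not overlap. ETFALPHA and ETFBETA, the subunits of the flavoprotein between IVD and ETFQO, had log2 fold changes of 0.05 ± 0.12 and 0.10 ± 0.11, with groups that overlapped. With 1 array left out, ETFBETA ranged between 0.030 (overexpressor replicate 1 left out) and 0.17 (overexpressor replicate 2 left out).

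The step after IVD in leucine breakdown is 3-methylcrotonyl-CoA carboxylase, whose subunit genes are MCCA and MCCB. MCCA had signals of 4186.6 and 3539.2 in the overexpressor, against 4727.8 and 5252.6 on the wild type arrays, so that the groups did not overlap. Its log2 fold change was -0.37 ± 0.10 (limma, adjusted p = 0.11). Leaving out 1 array gave values from -0.49, when overexpressor replicate 1 was dropped, to -0.25, when overexpressor replicate 2 was dropped. Dropping wild type replicate 1 gave -0.44, and dropping wild type replicate 2 gave -0.29. MCCB had 1891 and 1803.8 in the overexpressor, against 1739.1 and 2252 on the wild type arrays, which overlapped, and a log2 fold change of -0.10 ± 0.12. ALDH6B2, an aldehyde dehydrogenase gene, had -0.24 ± 0.08 and AT5G09300 0.31 ± 0.17, and neither passed (limma, adjusted p = 0.19 and adjusted p = 0.39). AT2G26800, also of this list, had -0.02 ± 0.11. MCCA was also the 1 tested gene of 10 listed as responding to darkness and sugar starvation.

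Of 21 genes that break down other amino acids, 4 were tested. By limma 0 passed, and 2 were under 0.05 before adjustment, beside 16.5% of all tested probe sets. Their median log2 fold change was -0.29, and -0.11 without overexpressor replicate 2. MGL, which encodes methionine gamma-lyase, had signals of 1254.6 and 716.2 in the overexpressor, against 1450.6 and 1467.8 on the wild type arrays. The groups did not overlap, but overexpressor replicate 1 lay much nearer to wild type than replicate 2 did. Its log2 fold change was -0.59 ± 0.19 (limma, adjusted p = 0.16). Leaving out overexpressor replicate 1 gave -0.98, whereas leaving out replicate 2 gave -0.21. Each of these fits holds only 1 overexpressor array, so its spread comes from the wild type arrays alone and no p-value is given. ASPGB1 showed the same order of the overexpressor arrays, and its log2 fold change was -1.35 with replicate 1 left out and -0.73 with replicate 2 left out. AT4G33150, the LKR/SDH locus of lysine breakdown, had 790.4 and 862.4 in the overexpressor, against 1191.2 and 1026.1 on the wild type arrays, and a log2 fold change of -0.40 ± 0.11 (limma, adjusted p = 0.10). AT5G38710 and DELTA-OAT, the gene of ornithine delta-aminotransferase, had -0.18 ± 0.16 and 0.08 ± 0.12.

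Beside FDH, 3 of 13 listed genes of formate, folate and glycine metabolism were tested. By limma 0 passed, and 1 was under 0.05 before adjustment, beside 16.5% of all tested probe sets. AT1G11860 had 6878.3 and 6621.9 in the overexpressor, against 5925.9 and 5660.9 on the wild type arrays, a log2 fold change of 0.22 ± 0.09 (limma, adjusted p = 0.24). Its direction was opposite to that of FDH. AT5G47435 and AT4G17360 had 0.07 ± 0.10 and -0.11 ± 0.15, with groups that overlapped.

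Beside CYTC-2, 8 of 21 genes listed for the cytochrome pathway and alternative oxidase were tested, none of them an alternative oxidase gene. Of the 8, 7 had a positive log2 fold change. Over all tested probe sets 7434 of 13961 were positive. By limma 0 of the 8 passed and 1 was under 0.05 before adjustment (12.5%, against 16.5% of all tested probe sets). Their median log2 fold change was 0.14, and 0.078 without wild type replicate 2. CYTC-1, the other cytochrome c gene, had signals of 7822.2 and 7542.1 in the overexpressor, against 6720 and 6617 on the wild type arrays. The groups did not overlap, and the log2 fold change was 0.20 ± 0.09 (limma, adjusted p = 0.27), against 0.82 for CYTC-2. The difference between them was not tested. AT1G80230 had 0.18 ± 0.10, which was 0.11 without overexpressor replicate 1. AT1G02410 had 0.17 ± 0.11, which was 0.11 without wild type replicate 1. GLDH, whose product makes ascorbate and gives its electrons to cytochrome c, had -0.18 ± 0.14 and was the 1 negative member.

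**Figure D3:**
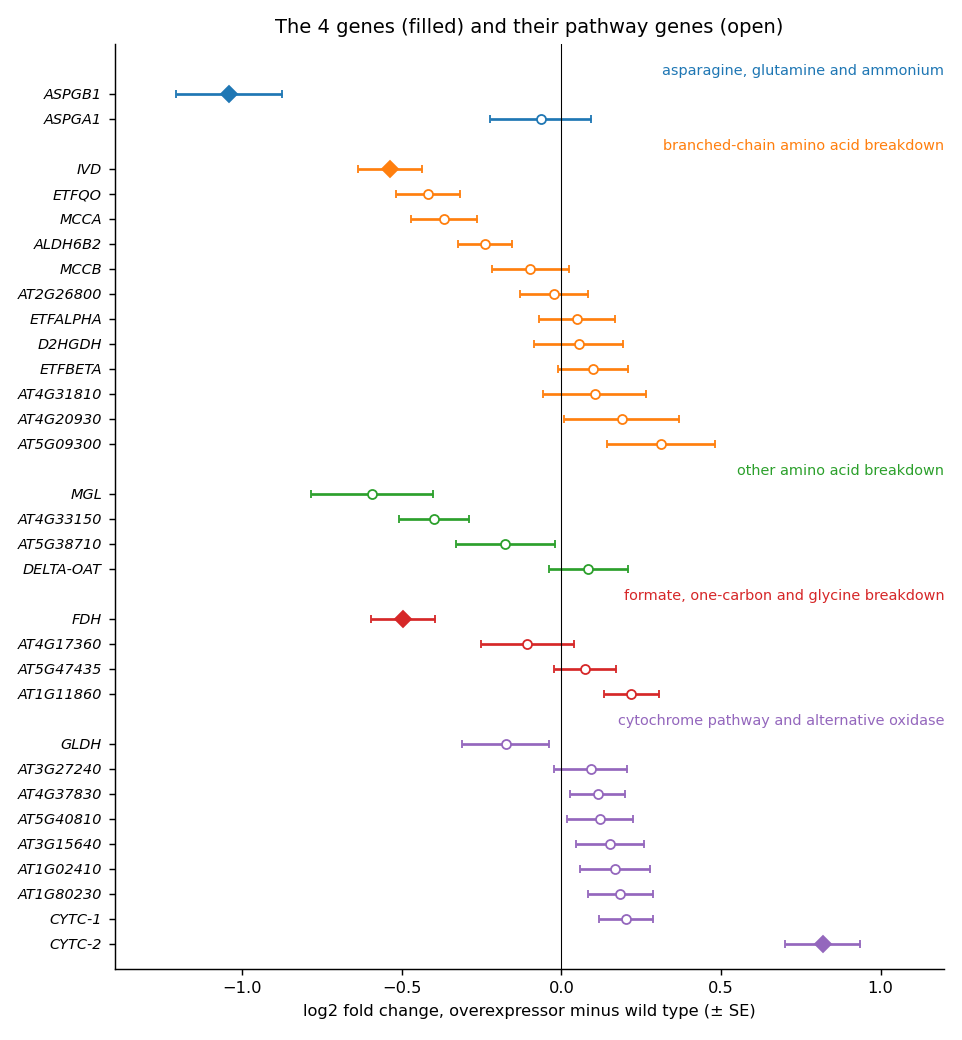
Log2 fold change, overexpressor minus wild type, ± SE for the 4 genes (filled diamonds) and the 27 tested genes of their pathways (open circles), 1 row a gene and 1 colour a list. ASPGB1 at -1.04 and CYTC-2 at 0.82 lie beyond every pathway gene drawn. IVD and FDH, at -0.54 and -0.50, lie between MGL at -0.59 and ETFQO at -0.42. Because this contrast chose the 4 genes, nothing can be read from their lying further out.

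Over all lists together, 27 of 100 pathway genes had a probe set naming them alone, and all 27 were tested. By limma 0 passed, and 7 (25.9%) were under 0.05 before adjustment, against 16.5% of all tested probe sets. Negative log2 fold changes made up 11 of the 27 (40.7%, against 46.8% of all tested probe sets). The 27 values ran from -0.59 for MGL to 0.31 for AT5G09300.

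In their pattern over the 4 arrays the genes differed most between ASPGB1 and CYTC-2 and least between IVD and FDH. The distance used is Euclidean, between log2(signal + 50) values after subtraction of each gene's own mean. It was 1.88 between ASPGB1 and CYTC-2, 0.22 between IVD and FDH, 0.67 between ASPGB1 and IVD, and 0.82 between ASPGB1 and FDH. The distance is not scaled for the size of a change, so it largely follows the fold changes by which the genes were chosen. These distances rest on the same 4 arrays and are a description. The 3 nearest probe sets of other single genes were listed for each gene, and they were chosen for likeness and so are not tested.

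For ASPGB1 the nearest were AT2G15880, GAT1_2.1, a glutamine amidotransferase gene, and ATL8, at distances of 0.36, 0.42 and 0.42. GAT1_2.1 had signals of 2134.2 and 1501.6 in the overexpressor, against 2803.1 and 2864.4 on the wild type arrays. ATL8 had 1095.6 and 542 in the overexpressor, against 1295.1 and 1281.6 on the wild type arrays. Both were lowest on overexpressor replicate 2, as ASPGB1 was. The log2 fold change of ATL8 was -0.70, and -0.22 without overexpressor replicate 2. AT2G15880 had 208.5 and 108.4 in the overexpressor, against 287.8 and 264.4 on the wild type arrays.

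The other 3 genes had much closer neighbours. AT1G19540, AT3G63270 and AT2G36690 lay at distances of 0.039, 0.064 and 0.067 from IVD. AT1G19540 had 453.8 and 446.6 in the overexpressor, against 721.9 and 634.9 on the wild type arrays, and like IVD it was nearly equal on the overexpressor arrays. For FDH the nearest were AT2G17710, AT3G22570 and AT4G17245, at 0.048, 0.075 and 0.076. AT2G17710 had 890 and 1120.8 in the overexpressor, against 1446.5 and 1407.6 on the wild type arrays. For CYTC-2 the nearest were AT5G62550, AT3G60420 and AT4G33550, at 0.073, 0.096 and 0.12. AT4G33550 had 1283.4 and 1079 in the overexpressor, against 672.8 and 696.2 on the wild type arrays. On those arrays AT5G62550 was dim, at 80 and 73.7, as was AT3G60420, at 99.6 and 94.3. With 1 added in place of 50, AT5G62550, AT3G60420 and AT4G33550 had log2 fold changes of 1.07, 1.06 and 0.78, against 0.88 for CYTC-2. Of the neighbours of IVD, AT2G36690 was dim on the overexpressor arrays, at 78.1 and 72.4. With 1 added, AT2G36690, AT3G63270 and AT1G19540 had -0.84, -0.62 and -0.59, against -0.55 for IVD. The likeness of dim neighbours thus depends on the added 50.

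**Figure D4:**
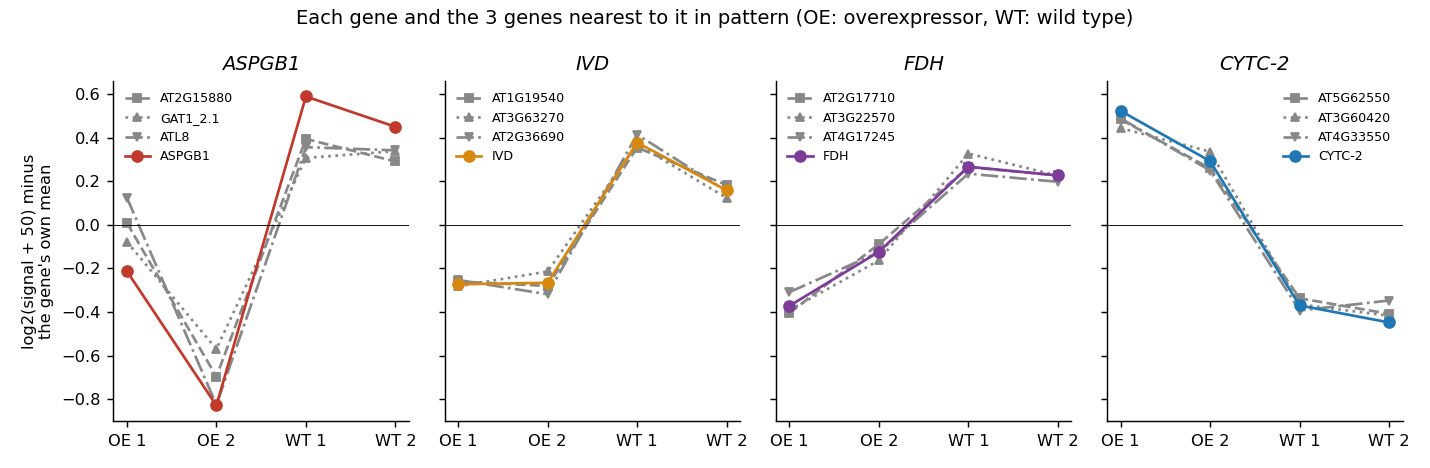
Log2(signal + 50) minus the gene's own mean on overexpressor (OE) and wild type (WT) arrays, for each of the 4 genes (coloured) and the 3 genes nearest to it in pattern (grey). On this scale the neighbours of IVD, FDH and CYTC-2 run almost on top of them. Those of ASPGB1 lie 0.36 to 0.42 away and have lower values than ASPGB1 on the wild type arrays.

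The fold changes of the 4 genes kept their direction under quantile normalization and median centring. The other settings could not have changed it. With groups that do not overlap, no left-out array and no pseudocount can change a sign. The filter, the variance prior and the replicate block leave the fold change of a gene as it is. Left-out arrays moved ASPGB1 between -1.35 and -0.73, IVD between -0.65 and -0.43, FDH between -0.62 and -0.37 and CYTC-2 between 0.70 and 0.93. How many of the genes had an adjusted p under 0.05 did depend on the settings. It was 0 of 4 with a constant variance prior and 0 of 4 with no filter on low signals, settings at which 9 and 1 of all probe sets were called.

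**Figure D5:**
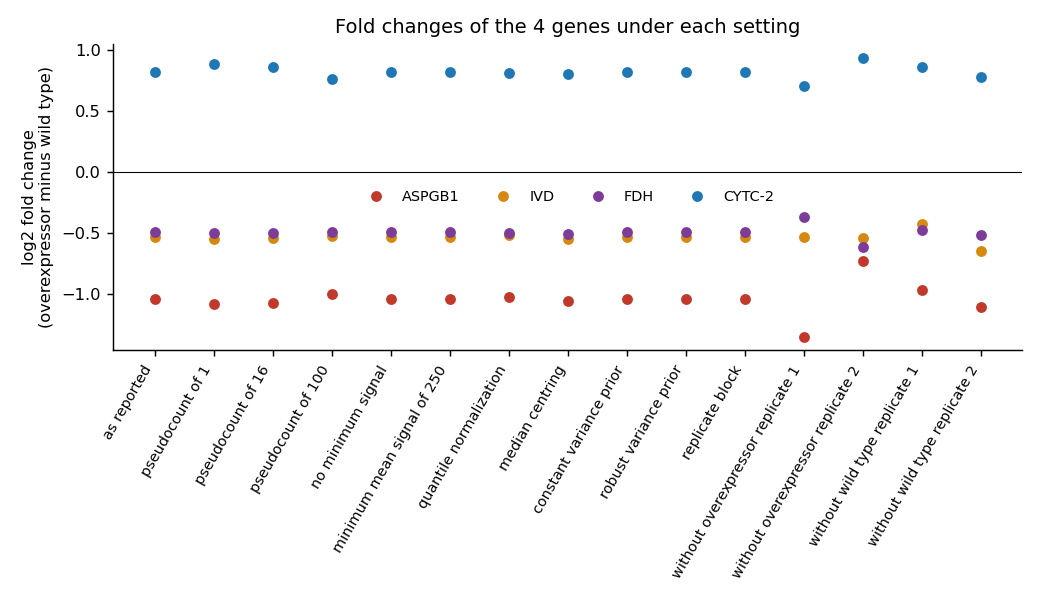
Log2 fold change of each gene, overexpressor minus wild type, as reported and under each of 14 other settings. Points of a gene stay on 1 side of 0 throughout, which only quantile normalization and median centring could have changed. The widest spread is that of ASPGB1, from -1.35 to -0.73, when an overexpressor array is left out.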

How the data were processed

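The values deposited by the authors are linear array intensities, which the submitters' processing notes credit to MAS5 (version not given in the sources used here). A global target of 500 was set on every array, per the labels. Such scaling hides a change shared by most transcripts. Groups and replicate numbers came from the sample titles.

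Genes came from the platform annotation, in which 13513 probe sets name 1 gene, 503 several and 8730 no listed gene. Of the first, 13436 matched the TAIR10.1 gene table. Genes that the table leaves unnamed are called by locus. No sequences of the genes were used here. After 50 was added, log2 signals of the 13961 probe sets that are no controls and have a mean signal of at least 100 were modelled on the group alone (R 4.3.3 and limma 3.58.1, whose eBayes step let the variance prior follow intensity). Tests were two-sided, with Benjamini-Hochberg adjustment over all of them at 0.05. An exact permutation of 2 against 2 arrays cannot go below p = 0.333. Precision is limited by having 2 arrays a group.

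The 4 genes and the 6 pathway lists were chosen with earlier results of these data known. Of each list the text names the members that passed or else up to 4 with the largest change, and of each of the 4 genes the 3 nearest patterns. MCCB, ETFALPHA, ETFBETA and AT2G26800 were named after their values were seen. The alternatives were pseudocounts of 1, 16 and 100, no minimum or one of 250, quantile normalization and median centring. Others were a variance prior that is constant or robust, a replicate block, and each array left out. With an array left out, 1 group holds 1 array, and the spread between replicates comes from the other group alone.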

Additional observations from a re-analysis of the deposited data

How the results depend on the processing

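Of 13961 tested probe sets 180 passed, and 1 passed with no minimum signal, 9 with a constant variance prior, 1075 with the replicate number as a block, and 101 to 489 with 1 array left out (101 without wild type replicate 1, 333 without wild type replicate 2 and 489 without overexpressor replicate 2). The same-numbered arrays deviated from their group means with a correlation of 0.056, and no label pairs them, so the block is no paired design. Under the block 4 of the 27 pathway genes passed, MCCA, ETFQO, AT4G33150 and MGL, beside 1075 of 13961 tested probe sets. The median log2 fold change of the 27 pathway genes, 0.073, was 0.054 with a minimum signal of 250, 0.059 with median centring and 0.018 to 0.059 with 1 array left out. That of the branched-chain list was -0.024 with a minimum of 250 and -0.064 to 0.010 with 1 array left out. Near 0, directions turned with 1 array left out for ASPGA1 (-0.35 to 0.22), MCCB (-0.28 to 0.084), AT2G26800 (-0.071 to 0.023), ETFALPHA (-0.039 to 0.14), AT5G38710 (-0.42 to 0.068), DELTA-OAT (-0.016 to 0.19), AT4G17360 (-0.25 to 0.036), AT5G47435 (-0.024 to 0.17) and GLDH (-0.36 to 0.0077). The causes were not tested.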
